A study of Mus musculus with 16 samples.

Results

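The eYFP siRNA knockdown of Pax3:Foxo1a was examined in 3N cells, the fraction of an alveolar rhabdomyosarcoma (aRMS) culture sorted at a DNA content between 2N and 4N, which the labels assign to S phase. The comparison was set by the array labels alone and used 4 of the 16 arrays of the series, 2 of 3N knockdown cells and 2 of 3N control cells, 1 of each from experiments 1 and 2. The knockdown cells had received 10 nM of an siRNA against eYFP and the control cells a control siRNA, both with 0.2% lipofectamine2000. All cells came from a tumor culture of the mouse model labelled Myf6Cre, Pax3:Foxo1a, p53 conditional, so that the control cells carried the fusion allele and the conditional p53 allele as well. In this model eYFP is the second cistron of the fusion transcript, and an siRNA against eYFP therefore targets the fusion mRNA. The other 12 arrays held 2N (G0/G1) and 4N (G2/M) cells of 3 experiments, each group with 3 arrays, and were used to set the 3N effect beside that in the other fractions.

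aRMS is a soft tissue sarcoma with features of skeletal muscle. The fusion protein joins the DNA-binding domains of Pax3, a transcription factor of embryonic muscle progenitors, to the transactivation domain of Foxo1, and is known as a strong activator of genes of the muscle progenitor state. During S phase the genome is copied by licensed origins and replication forks, histones are made in bulk, and the cyclin E and cyclin A kinases replace the cyclin D kinases of G1. Polo-like kinase 1 and the Cdc25 phosphatases act later, at the entry into mitosis. The sort was on Hoechst33342 fluorescence, the culture was 1 tumor model with 1 siRNA sequence against the fusion transcript, and effects of that sequence on other transcripts cannot be told apart from loss of the fusion.

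Between 12760 and 13135 of 25697 probes were detected on the 3N knockdown arrays, against 12572 and 12897 on the 3N control arrays, and the 2 arrays of a group correlated at 0.993 in knockdown and 0.990 in control cells. The 3N control cells differed from the 2N control cells at 448 of 9306 genes (4.81%) and from the 4N control cells at 71 genes (0.763%). Tyms, the thymidylate synthase, and Tk1, the thymidine kinase, were higher in 3N than in 2N control cells, by 0.73 (adjusted p = 0.00362) and 0.85 (adjusted p = 0.00422) on the log2 scale. Mcm6, a subunit of the replicative helicase, was higher in 3N than in 4N control cells by 0.98 (adjusted p = 0.00689), and Ccne2, the cyclin E2 of the G1/S transition, differed by -1.72 in 3N control cells relative to 2N control cells (adjusted p = 8.25e-07). On both 3N control arrays Cdc6, Mcm6 and Pcna were below every 2N control array, with Cdc6 at 9.30 and 9.05, against 10.64 to 10.79. For Rrm2 and Mcm5 the 3N and 2N control arrays overlapped. The mitotic kinase gene Plk1 was higher in 3N than in 2N control cells by 1.34 (adjusted p = 1.64e-06, limma). Among the tumor's muscle markers Myog, Myf5, Des and Chrna1 were detected on the 3N arrays, whereas Myod1 and Pax7 were detected on none of them. Of the 14 immune markers with a probe 10 were undetected on all 4 arrays, among them Ptprc, as were 8 of 10 endothelial markers, among them Pecam1, Cdh5 and Kdr, and 4 of 5 erythroid markers, while the endothelial markers Plvap and Egfl7 were detected on all 4.

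The knockdown was read on Foxo1, since neither the fusion nor eYFP had a probe of its own. Foxo1 stood at 8.61 and 8.44 in the 3N knockdown cells of experiments 1 and 2, against 9.49 and 9.34 in 3N control cells, on a scale of log2 signal after background correction and quantile normalization, where a difference of 1 is a 2-fold change. Both knockdown arrays were below both control arrays, and Foxo1 fell by 0.89 (SE 0.17, adjusted p = 0.00283, limma). The difference was -0.85 in 2N cells and -0.70 in 4N cells. No source used here gives the place of the probe on the transcript, so wild-type Foxo1 and the fusion cannot be told apart on it, and Pax3 was not detected on any array.

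The knockdown changed 1203 of 9306 genes in 3N cells at an adjusted p under 0.05 (limma, Benjamini-Hochberg over all genes), 601 of them higher (6.46%) and 602 lower (6.47%), 12.9% in all. In bulk RNA a change in the number of cells of a type and a change in RNA per cell cannot be told apart. All 1203 had the same sign in experiment 1 and in experiment 2. Over all 9306 genes the share with the same sign in both experiments was 67.3%. The call rests on the mean of the 2 experiment differences, so a shared sign is nearly fixed by the call and is no separate support. The rises were the larger changes: 229 genes were more than 2-fold higher and 46 more than 4-fold higher, whereas 113 were more than 2-fold lower and 2 more than 4-fold lower. With the experiment as a block 1852 genes were called, among them all 1203, and without knockdown array 1, knockdown array 2, control array 1 or control array 2 the count was 717, 582, 744 and 751. With 2 arrays against 2 an exact permutation test of a single gene cannot go below p = 0.333, so the calls rest on the spread pooled over the 16 arrays.

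**Figure D1:**
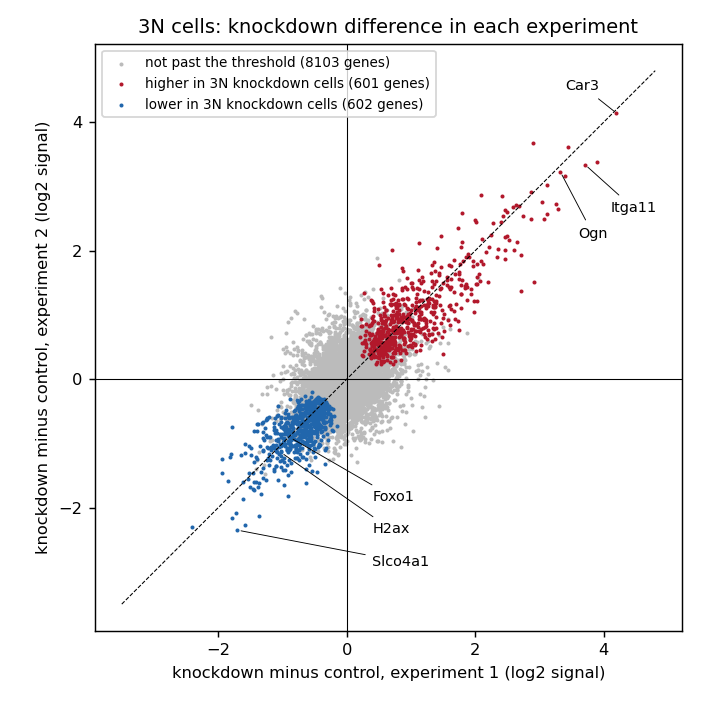
Each point is 1 of 9306 genes, with the knockdown minus control difference in 3N cells of experiment 1 on the horizontal axis and of experiment 2 on the vertical axis (log2 signal); red and blue points are the 601 genes that rose and the 602 that fell, and the dashed line marks equal differences. All coloured points lie in the quadrants where both experiments have the same sign, which selection on the mean of both differences nearly fixes. The rises reach further from 0 than the falls.

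The 15 largest rises in 3N knockdown cells were between 2.68 and 4.17 log2 units. Car3, carbonic anhydrase 3, an abundant enzyme of slow muscle and fat, stood at 11.84 and 11.96 in knockdown cells, against 7.64 and 7.83 in control cells, a rise of 4.17 (SE 0.27, adjusted p = 8.99e-07). Bmp4, a secreted ligand of the BMP receptors, stood at 10.42 and 10.31 in knockdown cells, against 6.52 and 6.92 in control cells, and rose by 3.64 (SE 0.27, adjusted p = 1.89e-06). Ogn, osteoglycin, a small proteoglycan of the matrix, had 9.48 and 9.39 in knockdown cells, against 6.16 and 6.17 in control cells (rise 3.28, SE 0.16, adjusted p = 5.64e-08). For these genes the distance between the groups was many times the distance between the 2 experiments, which their selection as the largest rises makes likely. Itga11, a collagen-binding integrin chain, was less even, at 9.93 and 10.77 in knockdown cells, against 6.23 and 7.43 in control cells (rise 3.52, SE 0.59, adjusted p = 0.00134). Ccl7, a monocyte chemokine, was not above background on either control array and was at least 7.47-fold higher in knockdown cells (adjusted p = 2.33e-06). Hspa1a, the inducible heat shock protein 70, Lox, an enzyme that cross-links collagen, Gask1b, Igfbp2, Prnd, Adamts4 and Rasgrp3 rose by 2.68 to 3.53. These calls held without each of the 4 arrays of 3N cells in turn. In all, 75 of the genes that rose were not above background on both control arrays.

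The 15 largest falls were smaller, with log2 fold changes between -2.36 and -1.56. Il24, a cytokine of the interleukin 10 family, stood at 10.59 and 10.43 in 3N knockdown cells, against 12.38 and 12.59 in 3N control cells, a fall of 1.97 (log2 fold change -1.97, SE 0.26, adjusted p = 0.000216). Serpinb2, an inhibitor of plasminogen activators, was above background in control cells alone and was at least 4.28-fold lower in knockdown cells (adjusted p = 9.78e-06). Ryr3, a calcium release channel, stood at 7.55 and 7.46 in knockdown cells, against 9.27 and 9.54 in control cells, and Id4, an inhibitor of basic helix-loop-helix factors, at 9.42 and 9.25, against 11.03 and 11.12 (log2 fold changes -1.91 and -1.74). Itgb7, an integrin chain, Fgf8, a growth factor of the embryo, Cdh6, a cadherin, Sema7a, a semaphorin, and Krt13, a keratin, fell by 1.56 to 1.75. The calls of all these genes held without each array of 3N cells in turn. Slco4a1 had the second largest measured fall, with 7.09 and 5.70 in knockdown cells, against 8.79 and 8.05 in control cells (log2 fold change -2.02, SE 0.50, adjusted p = 0.0150). Its 2 knockdown arrays lay further apart than those of the other falls named here, its second probe gave -0.15, and the call was lost without knockdown array 2 (adjusted p = 0.188) and without control array 1 (adjusted p = 0.119). In all, 36 of the genes that fell were not above background on both knockdown arrays.

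**Figure D2:**
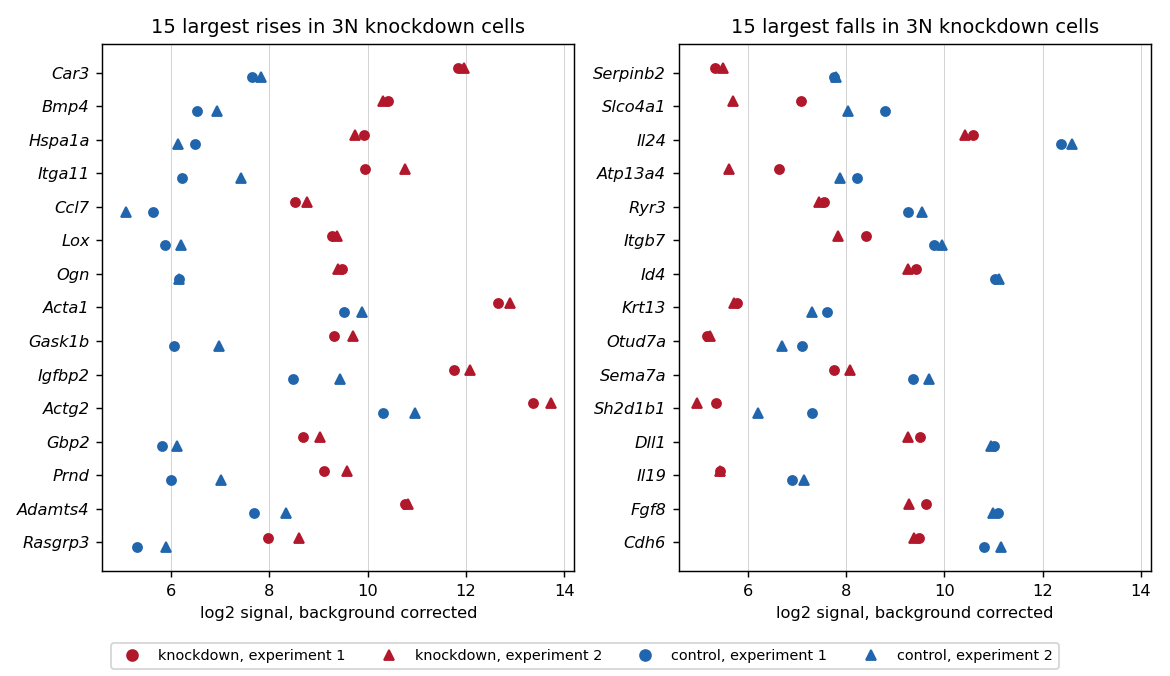
Log2 signal of the 15 genes with the largest rise (left) and the 15 with the largest fall (right) in 3N knockdown cells, 1 symbol per array, with knockdown in red above control in blue and circles for experiment 1 and triangles for experiment 2. The knockdown and control arrays are separate for every gene shown, with the gap narrowest in relation to the spread for Slco4a1 and Sh2d1b1.

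The study connects 6 genes with G2/M checkpoint adaptation, and part of this list came from the 2N and 4N cells of these experiments, so it is not independent of them. In 3N cells 4 of the 6 fell and none rose, beside 6.47% of all genes that fell, and 2 fell without knockdown array 2 or control array 2. H2ax, the histone variant that is phosphorylated at DNA breaks, stood at 11.28 and 11.05 in knockdown cells, against 12.31 and 12.19 in control cells, a fall of 1.08 (log2 fold change -1.08, SE 0.13, adjusted p = 0.000126). Bora, the activator of Aurora A and Plk1, stood at 9.48 and 9.49 in knockdown cells, against 10.37 and 10.21 in control cells (log2 fold change -0.80, SE 0.15, adjusted p = 0.00249). Both genes kept their call without each array in turn. Cdc25b, the phosphatase that activates Cdk1, stood at 7.92 and 7.67 in knockdown cells, against 8.61 and 8.88 in control cells (log2 fold change -0.95, SE 0.20, adjusted p = 0.00590), and lost its call without knockdown array 2 (adjusted p = 0.0709) and without control array 2 (adjusted p = 0.0623). Plk1 had the smallest of the 4 falls, with 11.63 and 11.47 in knockdown cells, against 11.99 and 11.86 in control cells (log2 fold change -0.37, SE 0.11, adjusted p = 0.0439), and without any 1 of the 4 arrays its adjusted p lay between 0.0673 and 0.279. Birc5, the apoptosis inhibitor survivin, did not pass the test, with 11.81 and 11.67 in knockdown cells, against 11.83 and 11.84 in control cells (log2 fold change -0.10, SE 0.11, adjusted p = 0.644), and its 2 other probes gave -0.01 and -0.12. Haspin, the histone H3 kinase of mitosis, stood at 9.54 and 9.62, against 9.81 and 9.81 (log2 fold change -0.22, SE 0.14, adjusted p = 0.361). The differences of Birc5 and Haspin were -0.49 and -0.64 in 2N cells and -0.37 and -0.42 in 4N cells.

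**Figure D3:**
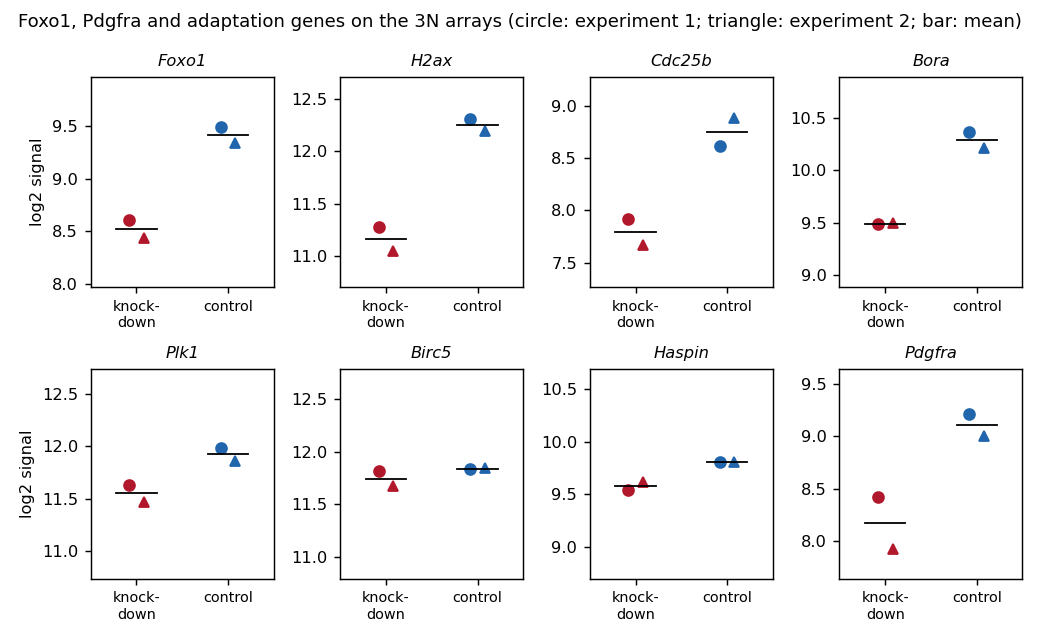
Log2 signal of Foxo1, Pdgfra and the 6 adaptation genes in 3N cells, with the 2 knockdown arrays to the left of the 2 control arrays in each panel, circles for experiment 1, triangles for experiment 2 and a bar at the mean; every vertical axis spans 2 log2 units. The groups are far apart for Foxo1, H2ax, Cdc25b, Bora and Pdgfra, close for Plk1 and closest for Birc5.

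Few genes of DNA replication, histones, chromatin assembly and nucleotide supply passed the test in the 3N cells. Of 43 measured genes of replication origins and forks, none passed the test in either direction in the fit without a block, 7 of them had an unadjusted p under 0.05 (limma), and 2 rose and 1 fell with the experiment as a block. None of 43 canonical and linker histone genes passed it either (4 at an unadjusted p under 0.05, limma, and 2 falls with the block), and none of 12 chromatin assembly genes did, with 0 at an unadjusted p under 0.05. Over all 9306 genes 2454 had an unadjusted p under 0.05 (limma). Among 19 genes of nucleotide supply, Samhd1, which degrades deoxynucleotides, rose by 0.59 (SE 0.12, adjusted p = 0.00487) and Cad, which carries the first steps of pyrimidine synthesis, fell by 0.61 (log2 fold change -0.61, SE 0.13, adjusted p = 0.00562). Their shares of the list were near the 6.46% of all genes that rose and the 6.47% that fell in 3N cells. Samhd1 lost its call without knockdown array 2 (adjusted p = 0.0665), and Cad without knockdown array 2 (adjusted p = 0.0643) and control array 2 (adjusted p = 0.0573). In 2N cells, with 3 arrays a group, 11 of the 43 replication genes and 10 of the 19 nucleotide genes fell, beside 10.7% of all genes there, and the difference between the fractions was tested for single genes only. Of 21 measured G1/S cyclin, E2F and Rb family genes 3 rose and 4 fell in 3N cells, beside 6.46% and 6.47% of all genes. The rises were Rb1 (0.76, adjusted p = 0.00393, limma), Tfdp2 (0.53, adjusted p = 0.0166) and Ccne2. E2f2 (-0.72, adjusted p = 0.0488) and Ccnd3 (-0.42, adjusted p = 0.0444) were among the falls. Without knockdown array 2 the log2 fold changes of Rb1, Tfdp2, E2f2 and Ccnd3 were 0.67, 0.44, -0.43 and -0.36.

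Ccne2 was the S phase gene whose values in 3N cells ran against those in the other fractions. It stood at 8.60 and 8.90 in 3N knockdown cells, against 8.31 and 8.28 in 3N control cells, a rise of 0.45 (SE 0.13, adjusted p = 0.0403) that was lost without knockdown array 2 (adjusted p = 0.323), control array 1 (adjusted p = 0.118) or control array 2 (adjusted p = 0.146). The knockdown minus control difference was -0.76, -0.62 and -0.46 in the 2N cells of the 3 experiments, 0.29 and 0.62 in the 3N cells and -0.28, -0.21 and -0.26 in the 4N cells. Both 3N differences were above 0 and the differences in the other fractions all below it. The 3N effect exceeded the 2N effect by 1.06 (SE 0.17), the lowest p of all genes in that test, with adjusted p = 0.243 in the fit without a block and adjusted p = 0.0494 with the experiment as a block. Rrm2, the small subunit of ribonucleotide reductase, stood at 10.52 and 10.65 in knockdown cells, against 10.33 and 10.04 in control cells (log2 fold change 0.41, SE 0.13, adjusted p = 0.0586), beside -0.34 in 2N cells. Cdc6, the origin licensing factor, differed by -0.13 (SE 0.17) in 3N cells, beside -0.93 in 2N cells. For these 2 genes the difference between the fractions did not pass the test (adjusted p = 0.862 and 0.964).

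**Figure D4:**
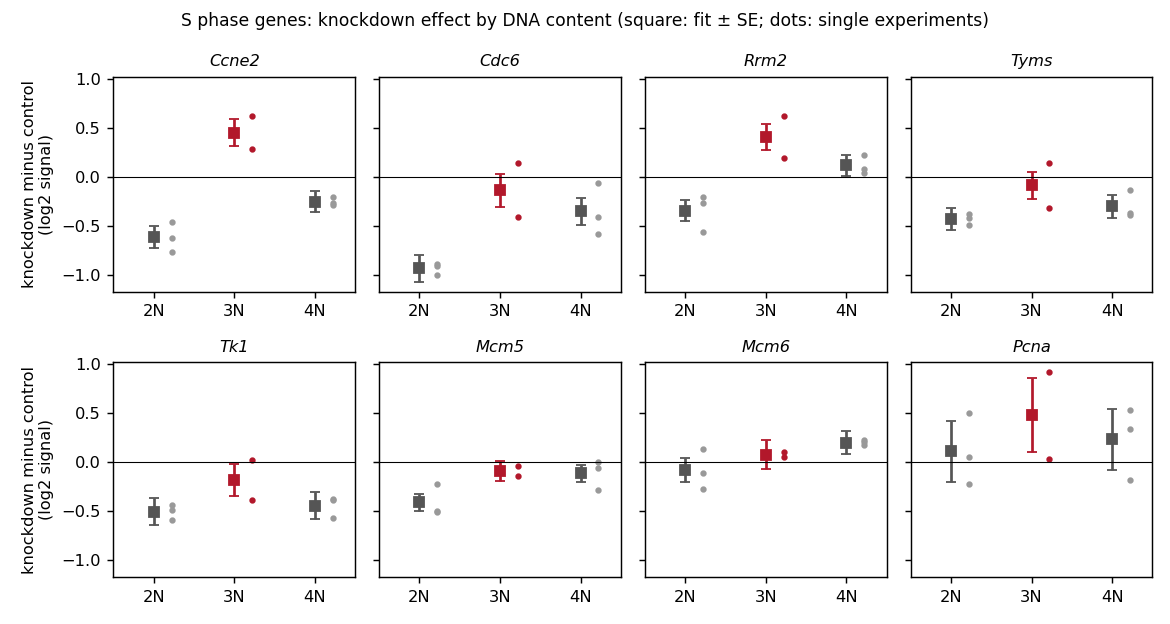
Knockdown minus control difference (log2 signal) of 8 S phase genes in 2N, 3N and 4N cells, with squares for the fitted difference, bars for its SE and dots for single experiments (3 in 2N and 4N cells, 2 in 3N cells). Ccne2 lies above 0 in 3N cells (0.45) and below it in 2N and 4N cells, and the 3N dots of Cdc6, Tyms and Tk1 fall on both sides of 0.

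Some mitotic genes fell and some inhibitors of the cyclin-dependent kinases rose. Of 53 measured G2/M genes 10 fell and none rose, beside 6.47% of all genes that fell, with a median log2 fold change of -0.14, beside -0.01 over all genes, and 6, 4, 5 and 5 fell without knockdown array 1, knockdown array 2, control array 1 and control array 2. Kif23, a kinesin of cytokinesis, stood at 11.12 on both knockdown arrays, against 11.98 and 11.79 in control cells (log2 fold change -0.76, SE 0.12, adjusted p = 0.00105). Cenpa, the histone of centromeres, stood at 13.05 and 12.88, against 13.71 and 13.59 (log2 fold change -0.69, SE 0.13, adjusted p = 0.00249), and Ccnf, cyclin F, at 7.42 and 7.41, against 8.24 and 8.27 (log2 fold change -0.84, SE 0.16, adjusted p = 0.00280). In all 3 genes the 2 knockdown arrays lay closer to each other than to the control arrays, which their call on these same arrays makes likely. Of 23 genes that inhibit cyclin-dependent kinases or mark growth arrest 6 rose and none fell (1 fell with the block), beside 6.46% of all genes that rose, and the 6 included Gadd45b, Gas6 and Ndrg1, which are not such inhibitors. Cdkn1c, the inhibitor p57, stood at 11.63 and 11.36 in knockdown cells, against 10.26 and 9.67 in control cells (rise 1.53, SE 0.20, adjusted p = 0.000244). Cdkn1a, the inhibitor p21, stood at 11.18 and 10.97, against 9.94 and 9.87 (rise 1.17, SE 0.15, adjusted p = 0.000216), and its 2 other probes rose by 1.06 and 1.08. Cdkn2b, the inhibitor p15, rose by 0.98 (SE 0.13, adjusted p = 0.000225). Of 40 genes of DNA damage response and repair, H2ax, Chek2 and Brip1 fell and none rose (2 rose with the block), a share near the 6.47% of all genes that fell, and the call of Chek2, the checkpoint kinase, was lost without knockdown array 2 (adjusted p = 0.161), control array 1 (adjusted p = 0.114) and control array 2 (adjusted p = 0.0505), and that of Brip1, a helicase of crosslink repair, without knockdown array 2 (adjusted p = 0.0509) and control array 2 (adjusted p = 0.0644).

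The p53 and apoptosis lists held calls in both directions. For comparison, 2454 of all 9306 genes had an unadjusted p under 0.05 (limma). Of 22 p53 targets 3 rose and 2 fell, beside 6.46% of all genes that rose and 6.47% that fell (6 and 3 with the experiment as a block, with 0 falls without knockdown array 2 and 1 without control array 1). Trp53inp1, a p53-induced nuclear protein, stood at 8.26 and 8.22 in knockdown cells, against 6.18 and 6.38 in control cells (rise 1.96, SE 0.15, adjusted p = 2.08e-06), and Fas, the death receptor, at 8.84 and 9.42, against 5.97 and 6.93 (rise 2.68, SE 0.41, adjusted p = 0.000696). Plk3 fell by 0.82 (log2 fold change -0.82), a call lost without knockdown array 2 (adjusted p = 0.0527). Of 20 pro-apoptotic genes 3 rose, among them Apaf1, the apoptosome scaffold (rise 0.75, SE 0.13, adjusted p = 0.00139), and 3 fell (1 without knockdown array 2), and none of 8 anti-apoptotic genes passed the test (1 at an unadjusted p under 0.05, limma).

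Contractile genes of striated and smooth muscle rose together. Of 23 measured sarcomere genes 13 rose and none fell, beside 6.46% of all genes that rose, with a median log2 fold change of 1.18, and 11 or 12 rose without any 1 array of 3N cells. Acta1, skeletal alpha-actin, stood at 12.65 and 12.90 in knockdown cells, against 9.53 and 9.88 in control cells (rise 3.07, SE 0.31, adjusted p = 2.68e-05). Tnnc1, the troponin C of slow and cardiac muscle, stood at 9.43 and 9.29, against 6.91 and 7.13 (rise 2.34, SE 0.20, adjusted p = 4.62e-06). Actc1, cardiac alpha-actin, stood at 11.95 and 12.08, against 9.30 and 9.95 (rise 2.39, SE 0.35, adjusted p = 0.000529), and Myl4, an atrial and embryonic myosin light chain, rose by 2.24. Of 22 smooth muscle genes 8 rose and none fell, 15 and 1 with the experiment as a block, and 5 rose without knockdown array 2 or without control array 1. Actg2, the gamma-actin of enteric smooth muscle, stood at 13.35 and 13.72, against 10.31 and 10.96 (rise 2.90, SE 0.31, adjusted p = 3.93e-05), and Tagln, transgelin, at 10.07 and 10.54, against 7.63 and 7.99 (rise 2.49, SE 0.27, adjusted p = 4.92e-05). Of 16 measured myogenic regulators and muscle progenitor markers none rose and Dll1 and Chrnb1 fell (3 and 4 with the experiment as a block). Neither is a myogenic regulator: Dll1 is a Notch ligand and Chrnb1 an acetylcholine receptor subunit. The log2 fold change of Chrnb1 was -0.60, -0.63 and -0.39 without knockdown array 1, knockdown array 2 and control array 2. Myog had 6.03 and 6.22 in knockdown cells, against 6.19 and 6.33 in control cells (adjusted p = 0.830). Only counts over genes that passed the detection filter are given here, 23 of 50 sarcomere and 22 of 26 smooth muscle genes with a probe. In each of these lists 4 measured genes were not above background in 3N control cells, 1 of them among the rises. Members that passed only where they were high add to the shares and the median.

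The promoters of the alpha-actins Acta1 (chr8:123894726-123895025, minus strand) and Actc1 (chr2:114052826-114053125, minus strand), from 250 bases before to 50 after the transcript start (RefSeq, GRCm38.p6), are shown because both striated actins rose and each holds a CArG box, the serum response element of contractile genes with 6 A or T between CC and GG. Capitals mark the box.
Acta1: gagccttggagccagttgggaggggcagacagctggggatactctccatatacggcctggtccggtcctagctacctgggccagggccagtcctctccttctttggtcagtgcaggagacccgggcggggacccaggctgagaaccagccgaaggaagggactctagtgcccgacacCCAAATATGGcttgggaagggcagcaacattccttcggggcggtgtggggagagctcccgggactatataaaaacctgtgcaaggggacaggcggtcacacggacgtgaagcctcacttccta
Actc1: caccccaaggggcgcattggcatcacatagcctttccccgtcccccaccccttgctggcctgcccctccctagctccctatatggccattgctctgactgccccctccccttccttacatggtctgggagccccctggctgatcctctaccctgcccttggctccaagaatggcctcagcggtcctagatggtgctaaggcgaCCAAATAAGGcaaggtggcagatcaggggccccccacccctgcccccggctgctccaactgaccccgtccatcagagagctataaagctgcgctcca
The box began at position -73 from the start in Acta1 and at -47 in Actc1. It was found on either strand in 8 of 38 sarcomere and smooth muscle genes with a promoter entry, in 2 of the 16 that rose, and in 488 of all 27025 genes (1.81%, or 1.63% of all 32851 promoters of this length). Actg2 and Tagln had no entry.

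Interferon response genes rose with the highest share of any list. Of 39 measured 24 rose and none fell, beside 6.46% of all genes, with a median log2 fold change of 0.95, and 22 or 23 rose without any 1 array of 3N cells. Of 56 with a probe the others did not pass the detection filter, and 5 of the 39 were not above background in control cells, 3 of them among those that rose, and members that passed only where they were high add to this share and median. Without the filter 23 rose. Gbp2, an interferon-induced GTPase, stood at 8.68 and 9.03 in knockdown cells, against 5.82 and 6.12 in control cells (rise 2.88, SE 0.19, adjusted p = 8.99e-07). Rsad2, the antiviral enzyme viperin, stood at 8.94 and 8.98, against 6.54 and 6.53 (rise 2.42, SE 0.15, adjusted p = 8.99e-07). Usp18, a protease that removes Isg15, stood at 8.76 and 8.63, against 6.18 and 5.94 (rise 2.63, SE 0.20, adjusted p = 2.33e-06). The 2 experiments differed far less than the groups in all 3 genes, which selection by the call on these same arrays makes likely. Parp14 and Igtp were not above background in control cells and were at least 2.61-fold and at least 2.41-fold higher in knockdown cells. Cxcl10, a chemokine of the interferon response, averaged 7.08 in knockdown cells, against 5.87 in control cells (rise 1.22, SE 0.13, adjusted p = 5.04e-05). In 2N and 4N cells 24 and 28 of the 39 rose, beside 11.2% and 10.1% of all genes.

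The promoters of Gbp2 (chr3:142620413-142620712, plus strand), Rsad2 (chr12:26456403-26456702, minus strand) and Cxcl10 (chr5:92348840-92349139, minus strand), over the same window and from the same source, are shown as named rises that hold the core of the interferon-stimulated response element, a GAAA pair with any 2 bases between, on one strand or the other. Capitals mark the match.
Gbp2: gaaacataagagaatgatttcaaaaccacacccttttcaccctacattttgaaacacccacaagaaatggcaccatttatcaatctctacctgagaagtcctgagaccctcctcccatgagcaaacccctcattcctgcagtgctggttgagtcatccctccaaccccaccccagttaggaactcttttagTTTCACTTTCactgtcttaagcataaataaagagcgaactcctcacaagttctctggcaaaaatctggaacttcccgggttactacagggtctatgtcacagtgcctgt
Rsad2: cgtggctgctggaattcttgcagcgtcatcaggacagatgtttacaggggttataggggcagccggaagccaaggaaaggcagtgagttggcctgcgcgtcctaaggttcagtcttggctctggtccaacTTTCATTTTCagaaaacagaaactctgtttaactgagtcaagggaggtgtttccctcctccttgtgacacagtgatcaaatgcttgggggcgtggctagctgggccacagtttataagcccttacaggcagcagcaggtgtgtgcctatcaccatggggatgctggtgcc
Cxcl10: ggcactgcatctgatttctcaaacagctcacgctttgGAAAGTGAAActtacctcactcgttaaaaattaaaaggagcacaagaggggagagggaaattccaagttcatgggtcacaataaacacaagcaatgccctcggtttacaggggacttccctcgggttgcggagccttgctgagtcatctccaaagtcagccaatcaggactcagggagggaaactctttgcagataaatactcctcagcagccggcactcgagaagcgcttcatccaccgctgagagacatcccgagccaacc
The matches began at positions -59, -120 and -213 from the start. The motif, searched on both strands, was found in 16 of 31 interferon genes with a promoter entry, in 9 of the 20 that rose, and in 1079 of all 27025 genes (3.99%, or 3.44% of all promoters). Usp18 and Parp14 had no entry.

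Matrix genes, secreted signals and their receptors also changed. Of 44 measured matrix genes 15 rose and 1 fell (2 with the block and 0 without any 1 array), beside 6.46% of all genes that rose and 6.47% that fell, with 8, 8 and 9 rises without knockdown array 1, knockdown array 2 and control array 1. Of 61 matrix genes with a probe only these 44 passed the detection filter, and 5 of the 44 were not above background in 3N control cells. Of these 5, 4 were among the rises, and members that passed only where they were high add to the share. Lox stood at 9.26 and 9.37 in knockdown cells, against 5.87 and 6.21 in control cells (rise 3.28, SE 0.27, adjusted p = 4.26e-06), and Thbs1, thrombospondin 1, at 11.03 and 11.80, against 9.36 and 9.96 (rise 1.76, SE 0.32, adjusted p = 0.00226). Of 40 genes of TGF-beta, activin and BMP signalling 7 rose and 3 fell, the falls at a share near that of all genes, and 12 and 6 did so with the experiment as a block. Among the rises beside Bmp4 were the activin subunit gene Inhba (rise 2.31, SE 0.39, adjusted p = 0.00139) and Tgfbi (rise 1.95, SE 0.26, adjusted p = 0.000269), while Grem1, a secreted BMP antagonist, stood at 13.65 and 13.37 in knockdown cells, against 14.49 and 14.41 in control cells (log2 fold change -0.94, SE 0.14, adjusted p = 0.000664). Fstl1, a follistatin-like secreted protein, rose by 1.55 (SE 0.27, adjusted p = 0.00158). Of 22 Wnt genes 7 rose and none fell, 3 without control array 1. The receptor Fzd2 stood at 9.18 and 8.95, against 7.33 and 7.47 (rise 1.66, SE 0.18, adjusted p = 3.95e-05). Cxcl12, the ligand of Cxcr4, stood at 11.49 and 11.62, against 8.74 and 9.09 (rise 2.64, SE 0.18, adjusted p = 1.37e-06), and its 2 other probes rose by 2.45 and 2.07. Of 11 Notch pathway genes 4 fell and none rose, and 2 fell without knockdown array 2, control array 1 or control array 2. The Notch ligand Dll1 stood at 9.51 and 9.27, against 11.01 and 10.95 (log2 fold change -1.59, SE 0.18, adjusted p = 5.24e-05).

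Of 18 measured genes reported as PAX3:FOXO1 targets 4 fell and none rose, beside 6.47% of all genes that fell, with a median log2 fold change of -0.26, and 2 fell without knockdown array 1, knockdown array 2 or control array 2. Pdgfra, a receptor tyrosine kinase the study follows, stood at 8.42 and 7.92 in 3N knockdown cells, against 9.22 and 9.01 in 3N control cells (log2 fold change -0.94, SE 0.22, adjusted p = 0.0127), a call lost without knockdown array 2 (adjusted p = 0.153) and without control array 1 (adjusted p = 0.0907). Igf1r, the other, stood at 8.28 and 8.29, against 8.10 and 8.48, and its groups overlapped (log2 fold change -0.00, SE 0.25, adjusted p = 0.996). Among 20 receptor tyrosine kinases 5 rose and 5 fell, with 2 and 3 rises without knockdown array 1 and control array 1, and 2, 2 and 3 falls without knockdown array 2, control array 1 and control array 2. Over all genes 6.46% rose. Only 20 of the 41 receptor tyrosine kinases with a probe passed the detection filter. Of the 5 that rose, Epha1 and Fgfr2 were not above background in 3N control cells, and members that passed only where they were high add to the share. Mertk, a receptor for Gas6, stood at 9.09 and 8.99, against 10.04 and 10.40 (log2 fold change -1.18, SE 0.19, adjusted p = 0.00121), and Epha7, an ephrin receptor, at 8.75 and 8.74, against 9.98 and 9.81 (log2 fold change -1.15, SE 0.17, adjusted p = 0.000575). Among 14 IGF genes 3 rose and 3 fell, 1 and 0 without knockdown array 2 and 1 fall without control array 1, with Igfbp2, an IGF binding protein, at 11.76 and 12.08, against 8.47 and 9.43 (rise 2.96, SE 0.31, adjusted p = 3.68e-05).

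Stress genes and immediate early factors made a smaller group, to be read beside 6.46% of all genes that rose and 6.47% that fell. Of 30 stress genes 6 rose and 1 fell (9 and 2 with the experiment as a block, and 3 rises without knockdown array 1). Hspa1a stood at 9.93 and 9.75 in knockdown cells, against 6.48 and 6.14 in control cells (rise 3.53, SE 0.25, adjusted p = 1.37e-06), and Hmox1, heme oxygenase 1, at 10.79 and 10.32, against 9.46 and 9.62 (rise 1.01, SE 0.18, adjusted p = 0.00178). Of 21 AP-1 and immediate early genes 2 rose and 5 fell, with 0 or 1 rise without any 1 array and 2 falls without control array 2. Dusp4, a MAP kinase phosphatase, stood at 8.74 and 8.59, against 9.81 and 9.72 (log2 fold change -1.10, SE 0.15, adjusted p = 0.000268), and Fosl1, a Fos family member, at 7.69 and 7.77, against 9.28 and 8.92 (log2 fold change -1.36, SE 0.24, adjusted p = 0.00165). None of 54 cytosolic ribosomal protein genes and none of 8 housekeeping genes passed the test (5 and 2 at an unadjusted p under 0.05, limma, beside 2454 of all 9306 genes).

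**Figure D5:**
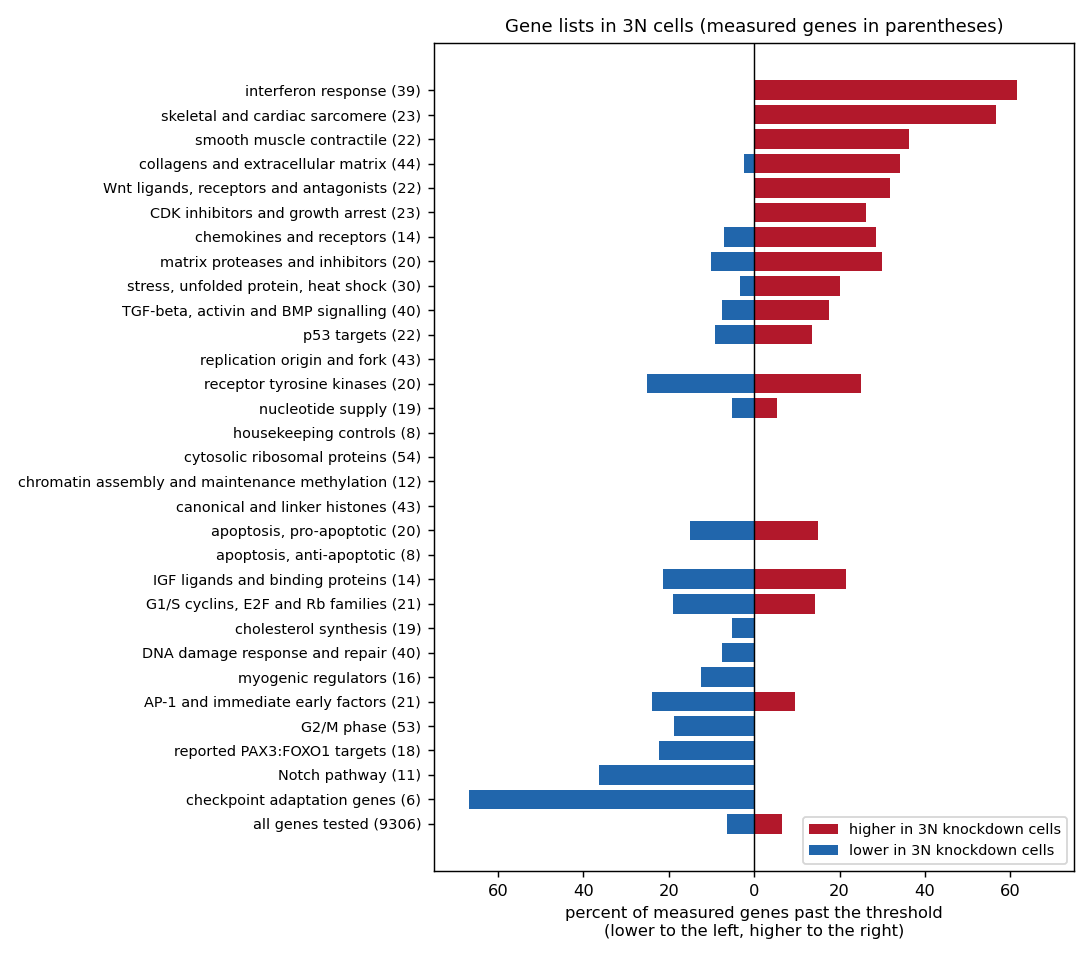
Percent of the measured genes of each list that rose (red, to the right) and fell (blue, to the left) in 3N knockdown cells, with the number measured in parentheses and all 9306 genes in the lowest row for comparison (6.46% and 6.47%). Interferon and sarcomere genes have the longest bars to the right, and the replication, histone, chromatin assembly, ribosomal protein, housekeeping and anti-apoptotic lists have none on either side.

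Several markers of other cell types moved with the knockdown, and their part in the matrix and muscle changes was not tested. Plvap, a protein of endothelial fenestrae, stood at 9.19 and 8.88 in knockdown cells, against 10.47 and 9.83 in control cells (log2 fold change -1.12, SE 0.25, adjusted p = 0.00869), a call lost without knockdown array 2 (adjusted p = 0.0932) and control array 1 (adjusted p = 0.102), and Egfl7 did not pass the test (log2 fold change -0.51, adjusted p = 0.0795). The summed signals given here are raw, before background correction and normalization, so array brightness and background enter them. Median raw signals over all probes were 150.2 and 144.7 in 3N knockdown cells, against 169.1 and 146.3 in 3N control cells. The summed signal of the 10 endothelial markers was 3310 and 2890 in knockdown cells, against 5496 and 4001 in control cells. Of the immune markers Cd3e, a T cell receptor subunit, was not above background in control cells and was at least 1.24-fold higher in knockdown cells (adjusted p = 0.0368, and between 0.0875 and 0.205 without any 1 array), with summed signals over the list of 1818 and 1722 in knockdown cells, against 2016 and 1659 in control cells. Of the fibroblast and adipocyte markers Lum, Fap and Adipoq were undetected on the 4 arrays of 3N cells. Of the 7 measured genes of that list 3 rose and 1 fell, beside 6.46% of all genes that rose and 6.47% that fell. Pdgfrb, a pericyte and fibroblast receptor, rose by 1.45 (SE 0.31, adjusted p = 0.00638, and 0.0793 without knockdown array 1), and Pparg, the regulator of fat cells, fell by 1.02 (log2 fold change -1.02, SE 0.26, adjusted p = 0.0203, and 0.202 without knockdown array 2 and 0.165 without control array 1). The summed signal of its 14 markers was 6110 and 4772 in knockdown cells, against 9398 and 5783 in control cells. These sums add unlike probes, and the median log2 fold change of the 7 measured markers was 0.52. Of the epithelial and neural markers Krt14, Cdh1 and Krt8 rose and Krt19 fell (Krt8 lost its call without knockdown array 1, knockdown array 2 or control array 2), with summed signals of 18732 and 18243 in knockdown cells, against 16408 and 11823 in control cells. Krt14, a basal keratin, stood at 9.94 and 10.14, against 7.60 and 8.25 (rise 2.11, SE 0.33, adjusted p = 0.000765).

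The 3N response was set beside that in the other fractions, which had their own control arrays but shared experiments with the 3N cells. Of the 1203 genes called in 3N cells 988 were called in the same direction in 2N cells, which is 82.1% of the 3N calls and 48.4% of the 2041 genes called in 2N cells (21.9% of all genes). In 4N cells 1021 were called in the same direction, 84.9% of the 3N calls and 55.0% of the 1855 genes called there (19.9% of all genes), and 912 were called in all 3 fractions. A further 105 were called in neither 2N nor 4N cells. In the test of the difference itself no gene had a 3N effect that differed from the 2N effect (limma, lowest adjusted p = 0.243, 353 genes at an unadjusted p under 0.05, 1 gene with the experiment as a block, Ccne2) or from the 4N effect (lowest adjusted p = 1.00, 185 genes at an unadjusted p under 0.05, none with the block). If no effect differed, about 465 of 9306 genes would be expected at an unadjusted p under 0.05, more than either count in the fit without a block. With the experiment as a fixed or random block the counts against 2N cells were 590 and 536, above 465. Against 4N cells they were 324 and 312. Genes called in 3N cells alone are therefore not shown to respond in that fraction only. The median SE of such a difference was 0.22. Even the 3N minus 2N difference of Ccne2, 1.06 with an SE of 0.17, did not pass in the fit without a block. With 2 arrays a group, differences of about 1 log2 unit and less could therefore go undetected.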

How the data were processed

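RNA of 16 sorted samples was hybridised to Illumina MouseRef-8 v2 arrays, 1 array each. The authors deposited probe intensity values before normalization, with a detection value per probe and array that is a fraction, high for bright probes (1 minus the detection p), and quantile-normalized intensity values. GenomeStudio made both, per the labels. From the unnormalized intensities the background was corrected by normexp on the detection values (offset 16), log2 values were quantile normalized over the 16 arrays, 13882 of 25697 probes, those detected on 3 or more arrays (detection p under 0.05), were kept, and the brightest probe stood for a gene. Of the probes 23978 had a gene symbol and 1719 had none here. limma 3.58.1 (R 4.3.3) fitted 6 group means without a block, with Benjamini-Hochberg adjustment over 9306 genes. The number of arrays limits the precision. The script was tested on simulated data.

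Groups came from the labels, which give the experiment number, so the experiment pairs the samples. Deviations of the 3N knockdown and control arrays of an experiment from their group means correlated at 0.169. Those of the 3N and the 2N or 4N arrays of the same treatment and experiment correlated at 0.283 to 0.525. The fractions of an experiment are therefore not independent, which the fit without a block leaves out. The methods call the experiments of the 2N and 4N samples independent, and no source used here says that they were separate cultures, so p-values may measure only technical spread between arrays. A gene not above background on both arrays of a group has only a bound, given as at least N-fold, from the lowest signal among detected probes. Genes were named if the study names them, if they were among the 15 largest rises or falls, or were up to 5 of the largest changes of a list, or were markers. Members and lists were chosen with earlier results of these data known. Alternatives were the experiment as a fixed or random block, other background corrections, scalings, probe filters and probe summaries, fewer arrays, and each 3N array left out. Promoters came from RefSeq (GRCm38.p6). The tumor culture used and the hours from transfection to sort were not stated in any source used here.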

Additional observations from a re-analysis of the deposited data

Results flagged for a closer look

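Ccne2, cyclin E2, drew attention because its 3N and 2N knockdown effects differed in the fits with a block, though not in the fit without one. The effect in 3N cells exceeded that in 2N cells by 1.06 log2 units (SE 0.17, and in limma adjusted p = 0.243 without a block, 0.0494 with the experiment as a fixed block and 0.0321 as a random block). Both 3N experiments had a difference above 0 (0.29 and 0.62), whereas the 3 experiments in 2N cells had -0.76, -0.62 and -0.46 and those in 4N cells -0.28, -0.21 and -0.26. The 3N effect exceeded the 4N effect by 0.70 (adjusted p = 1.00).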

How the results depend on the processing

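The count of 1203 changed genes was 1852 with the experiment as a replicate block (all 1203 among them, and the same count agreed in both experiments), 631 when only the 4 arrays of 3N cells were fitted, again all agreeing, and 582 to 751 with 1 array of 3N cells left out. The other 11 alternatives gave between 886 and 1769. Median scaling called 475 higher and 690 lower (40.8% higher, against 601 and 602), with the median of all genes at -0.07. No called gene changed sign under any alternative. Foxo1 kept its call in all 17 alternatives, with a log2 fold change between -0.98 and -0.81 without 1 array. Of 128 named genes called, 75 kept the call without each 3N array in turn and 53 did not. The test of 3N against 2N effects called 1 gene, Ccne2, under both the fixed and the random replicate block and none otherwise, and that of 3N against 4N effects none. The replicate block ended none of the 1203 calls, and the calls it added beyond those named in the report are given here only as the count of 1852. The 2 arrays a group and the signal over background of dim genes limit what could be seen.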
